A study of Mus musculus with 18 samples.

Results

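Potassium channel genes were taken as all genes whose symbol in the probe annotation of the array begins with Kcn, followed by at least 1 lower-case letter and a number. The rule found 87 genes on 171 probes, of 19057 genes named by a probe with a single symbol. It used no measured value. All belong to pore-forming or auxiliary subunits of potassium channels except 2, Kcnq1ot1 and Kcnmb4os1, which are non-coding RNAs. The arrays held RNA of freshly sorted mammary cells from female FVB/N mice, all depleted of cells with the lineage markers CD31, CD45 and TER119. A MaSC-enriched subset (CD29hi CD24lo/+ CD61+), a luminal progenitor subset (CD29lo CD24+ CD61+) and a mature luminal subset (CD29lo CD24+ CD61-) were each measured on 5 arrays, and a stromal subset (CD29lo CD24-) on 3. Mammary stem cells (MaSCs) and myoepithelial cells share the basal gate, so the MaSC-enriched subset holds both, and the stromal gate is defined by the absence of an epithelial marker. Each array held 1 subset of 1 of 5 pools of 3 to 5 mice, and pools 1, 2 and 3 also gave the stromal arrays. No genetic change or treatment was applied, and the age of the mice on the arrays was not given in the sources used here.

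Potassium channels let potassium leave or enter the cell along its gradient and so set the membrane potential. Voltage-gated (Kv), calcium-activated, inward-rectifying (Kir) and tandem-pore (K2P) channels differ in what opens their pore, and auxiliary subunits shift their gating or their traffic to the membrane. In the mammary gland, basal myoepithelial cells contract like smooth muscle to expel milk, and luminal cells line the duct and move ions and fluid, both of which draw on the membrane potential.

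Levels are the authors' normalized log2 intensities, on which a step of 1 is a 2-fold difference. Background on an array was a level set from olfactory and vomeronasal receptor probes, and ranged from 5.10 to 5.44 over the 18 arrays. On each array, 8.13% to 12.7% of these receptor probes lay above it. A gene was tested if its probe lay above background on at least 1 array. Of the 87 genes, 77 were tested, each by its brightest probe. The other 10 (Kcne3, Kcng1, Kcng2, Kcng3, Kcnh5, Kcnh8, Kcnj1, Kcnj9, Kcnk18 and Kcnmb4os1) were not above background on any array. Since probes differ in brightness, levels are compared between subsets for a gene and never between genes. A difference was called at an adjusted p under 0.05 and more than 1.5-fold in a linear model over all genes (limma), and a gene was placed in the signature of an epithelial subset if it was called the same way against both other epithelial subsets, or in that of the stroma if called against all 3. In RNA of sorted bulk cells, fewer cells of a type and less RNA per cell cannot be told apart.

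Sequences of the promoters of 66 of the 87 genes were matched by symbol in RefSeq on build GRCm38.p6, as 300 bases from 250 before the start of the gene to 50 after it. 5 are printed 5′ to 3′ because their genes carry the subset patterns described below: the 2 subunits of the BK channel that were higher in the MaSC-enriched subset, the 2 genes of the luminal progenitor pattern with the largest differences from mature luminal cells and 1 gene of the mature luminal pattern. Capitals mark GGGCGG, the core of the GC box, on either strand.
Kcnmb1 chr11:33962763-33963062, plus strand: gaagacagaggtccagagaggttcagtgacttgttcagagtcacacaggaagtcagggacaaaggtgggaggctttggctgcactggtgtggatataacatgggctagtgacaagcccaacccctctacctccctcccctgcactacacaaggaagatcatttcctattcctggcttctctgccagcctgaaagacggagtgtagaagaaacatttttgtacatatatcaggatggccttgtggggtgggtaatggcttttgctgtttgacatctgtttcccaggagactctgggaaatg
Kcnma1 chr14:24004156-24004455, minus strand: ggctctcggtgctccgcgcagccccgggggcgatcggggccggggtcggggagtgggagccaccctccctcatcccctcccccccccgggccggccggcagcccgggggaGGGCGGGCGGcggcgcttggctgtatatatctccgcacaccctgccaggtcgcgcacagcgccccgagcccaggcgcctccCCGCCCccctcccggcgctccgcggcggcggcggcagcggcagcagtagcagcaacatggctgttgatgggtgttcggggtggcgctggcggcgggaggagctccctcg
Kcnn4 chr7:24370013-24370312, plus strand: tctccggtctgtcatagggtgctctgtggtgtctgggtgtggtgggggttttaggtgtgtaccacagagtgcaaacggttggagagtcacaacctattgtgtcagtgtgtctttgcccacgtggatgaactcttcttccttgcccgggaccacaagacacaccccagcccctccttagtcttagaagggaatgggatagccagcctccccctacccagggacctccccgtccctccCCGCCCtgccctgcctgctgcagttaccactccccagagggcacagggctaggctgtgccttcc
Kcnk5 chr14:20181733-20182032, minus strand: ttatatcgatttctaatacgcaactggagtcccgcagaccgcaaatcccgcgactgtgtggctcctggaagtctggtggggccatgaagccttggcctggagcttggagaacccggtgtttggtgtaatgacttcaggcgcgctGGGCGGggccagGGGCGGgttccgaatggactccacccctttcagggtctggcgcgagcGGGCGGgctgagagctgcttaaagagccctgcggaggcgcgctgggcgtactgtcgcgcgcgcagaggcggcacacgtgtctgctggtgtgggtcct
Kcnh2 chr5:24329542-24329841, minus strand: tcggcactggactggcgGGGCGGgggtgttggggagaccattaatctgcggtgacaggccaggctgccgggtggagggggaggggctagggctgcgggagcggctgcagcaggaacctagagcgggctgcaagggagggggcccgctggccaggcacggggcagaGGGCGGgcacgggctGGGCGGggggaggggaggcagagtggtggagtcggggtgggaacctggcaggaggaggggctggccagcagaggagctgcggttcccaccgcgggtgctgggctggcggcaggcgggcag
The BK channel pair had unlike promoters. That of Kcnmb1 held 1 CpG at 49.7% GC and no GGGCGG, and that of Kcnma1 held 36 CpG at 78.0% GC and 3 matches, of which 2 overlap. Those of Kcnn4, Kcnk5 and Kcnh2 held 6, 26 and 19 CpG. GGGCGG was found on either strand in 35 of the 66 promoters (53.0%) and in 35.9% of all 27025 promoters of the same length, and TATAAA in 2 of 66 (3.03%) against 14.2%. The E box CAGGTG was found in 17 of 66 (25.8%, against 20.0% of all), TGANTCA in 3 of 66 (4.55%, against 7.93%) and the CArG box in 0 of 66 (against 1.57%). All 11 genes of the MaSC-enriched signature had a promoter, of which 4 held GGGCGG (Kcnab1, Kcnab2, Kcnma1 and Kcne1l), 1 held CAGGTG (Kcna5) and 1 held TGANTCA (Kcnip3). The median promoter had 10 CpG and 59.0% GC in the potassium channel genes and 7 CpG and 52.7% GC over all genes. These matches are descriptions of letters, not of sites in use.

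32 of the 77 tested potassium channel genes (41.6%) were called in at least 1 of the 6 comparisons between subsets, against 52.6% of the 16325 genes tested. Over all genes on the array, tested or not, the shares were 36.8% of 87 and 45.0% of 19057. 27 of the 32 fell into a signature. The MaSC-enriched signature held 11 genes that were higher, where 9.66% of all genes tested were, and 4 that were lower, where 8.17% were. The luminal progenitor signature held 3 higher genes (2.09% of all genes) and 1 lower gene (0.778%). The mature luminal signature held 6 higher genes (3.21% of all genes) and 0 lower genes (3.74%). With limma, 0 potassium channel genes were lower in the mature luminal subset than in both others at an unadjusted p under 0.05 too. The share of all genes tested that met this looser rule is not given here, so that 0 has nothing to be compared with. The stromal signature held 8 higher genes (9.92% of all genes) and 2 lower genes (9.69%). The median log2 difference over the 77 tested genes lay between -0.03 and 0.02 in the 6 comparisons, beside -0.06 to -0.02 over all genes tested.

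**Figure D1:**
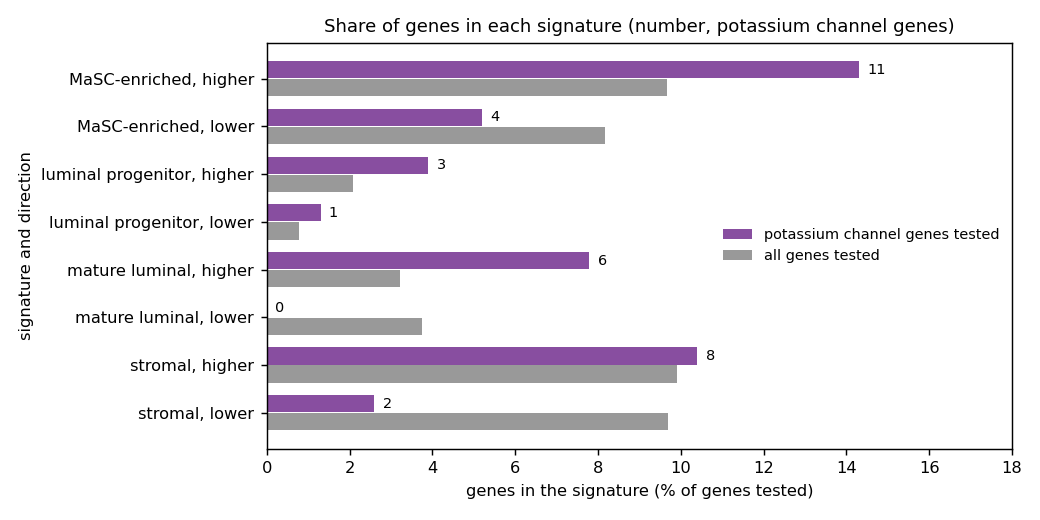
Share of the tested potassium channel genes (purple, % of 77) and of all tested genes (grey, % of 16325) in each signature and direction, with the number of potassium channel genes beside the bar. The MaSC-enriched signature held 11 higher genes, and the mature luminal signature held 0 lower genes.

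The share of called genes differed between the families, which hold few genes each. Counts are over the genes measured, tested or not, where 45.0% of all 19057 genes were called. Of the Kv pore genes of the Kv1 to Kv4 classes, 5 of 14 measured were called, and of the auxiliary subunits of voltage-gated channels 7 of 12. Among the EAG, ERG and ELK channels 3 of 8 were called, among the inward rectifiers 2 of 13 and among the K2P channels 6 of 14. The calcium- and sodium-activated pore genes, listed together with Kcnu1, had 6 of 8 called. Of the modifier subunits, which carry no current of their own, 1 of 10 was called. None of the 3 KCNQ channels measured was called in limma. Kcnq3, given as the member of the family with the highest reading, had means of 5.62 ± 0.46, 5.53 ± 0.18 and 5.52 ± 0.63 (SD, n = 5) in the MaSC-enriched, luminal progenitor and mature luminal subsets and 5.41 ± 0.23 (n = 3) in the stroma, near the background range. The 45 tested genes that were not called lay near background: their highest subset mean had a median of 5.18, and none exceeded that of Kcns1, 5.80 in the MaSC-enriched subset. 5 genes lay above background on all 18 arrays, namely Kcnk1, Kcnk5, Kcnk6, Kcnn1 and Kcnq1ot1.

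**Figure D2:**
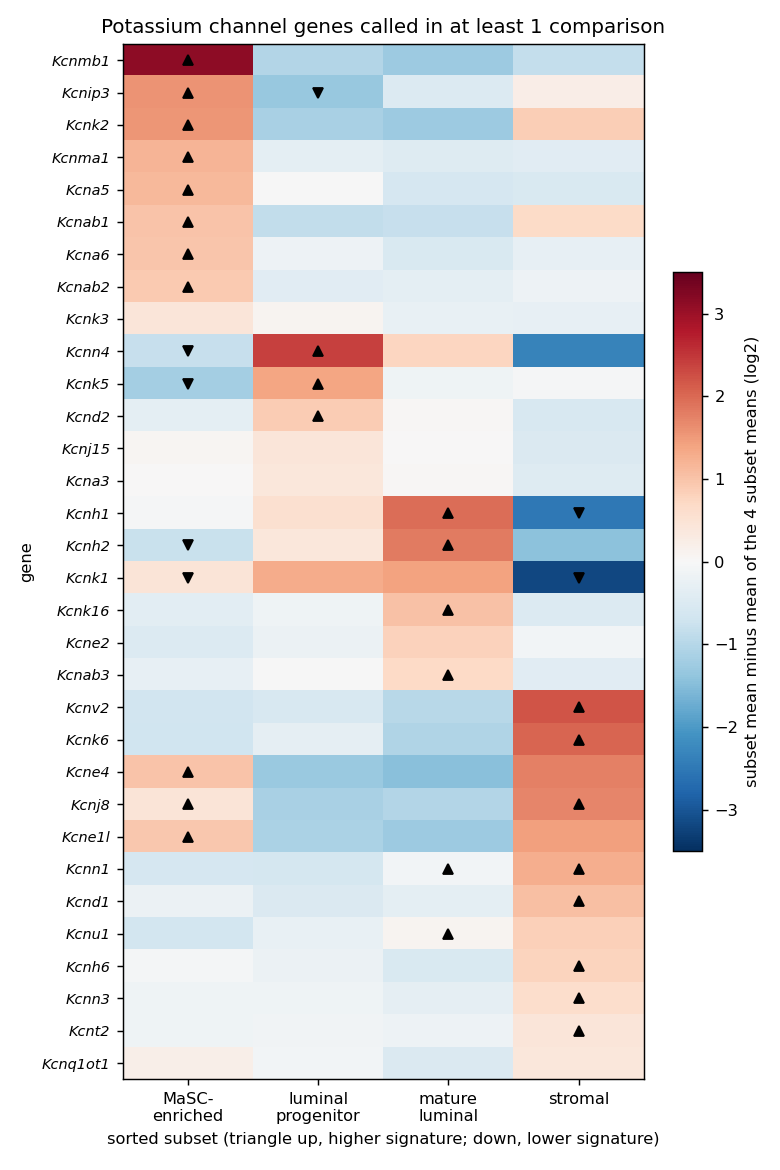
The 32 called genes (rows) in the 4 subsets (columns), colored by the subset mean minus the mean of the 4 subset means on the log2 scale. Triangles that point up or down mark the higher or lower signature of a subset, and each subset has a block of genes with their highest mean there.

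The MaSC-enriched signature does not use the stroma. Of its 11 higher genes, 7 were also called above the stroma, Kcnab1, Kcne1l and Kcne4 were not called against it, and Kcnj8 was called below it. The gene with the largest difference was Kcnmb1, which encodes the beta subunit that raises the calcium sensitivity of the BK channel in smooth muscle. Its levels in pools 1 to 5 were 10.09, 9.98, 7.97, 8.84 and 9.37 in the MaSC-enriched subset. They were 4.89, 4.94, 5.37, 5.03 and 5.17 in luminal progenitors, 4.72, 4.79, 4.96, 5.03 and 4.77 in mature luminal cells, and 5.28, 5.19 and 5.34 in the stroma. The MaSC-enriched arrays did not overlap with any other, and 0 of 5 mature luminal arrays and 1 of 5 luminal progenitor arrays were above background. The fitted difference was 4.33 ± 0.28 (SE, log2, 20.1-fold, adjusted p = 4.94e-10 in limma) against luminal progenitors. Against mature luminal cells it was at least 17.1-fold, where the mature luminal level is set to background (adjusted p = 1.17e-10). Against the stroma the MaSC-enriched subset was 17.8-fold higher (adjusted p = 4.42e-10). The mean of the pool differences was 4.28 in the first hybridization batch (pools 1 to 3) and 4.01 in the second (pools 4 and 5) against luminal progenitors. The RefSeq span of Kcnmb1 overlaps with that of Kcnip1, which was not called in any comparison.

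Kcnma1, the pore-forming subunit with which the Kcnmb1 product assembles, was raised in the same subset by less. Its MaSC-enriched levels were 7.11, 6.28, 5.23, 6.78 and 7.55, against 4.60 to 5.85 in luminal progenitors, 4.73 to 5.43 in mature luminal cells and 4.87 to 5.17 in the stroma. The MaSC-enriched array of pool 3, which also had the lowest Kcnmb1 level, lay within the range of the luminal arrays. The difference was 1.64 ± 0.27 (3.13-fold, adjusted p = 8.5e-05) against luminal progenitors, 1.64 ± 0.26 (adjusted p = 4.79e-05) against mature luminal cells and 2.82-fold (adjusted p = 0.000135) against the stroma, and the gene was higher in the MaSC-enriched array in 5 of 5 pools in both epithelial comparisons. All 3 tested probes of Kcnma1 were in the MaSC-enriched signature.

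Lrrc26, a gamma subunit that lets the BK channel open at more negative potentials and is known from secretory epithelia, had the opposite pattern. Its levels were 4.73, 4.73, 5.94, 5.60 and 4.61 in the MaSC-enriched subset, 8.61, 7.47, 7.83, 8.21 and 9.10 in luminal progenitors, and 9.62, 8.53, 7.94, 8.10 and 9.53 in mature luminal cells. The 3 stromal arrays lay between 4.60 and 4.79, below background. The difference of the MaSC-enriched subset from luminal progenitors was -3.15 ± 0.36 (8.86-fold lower, adjusted p = 1.07e-06) and that from mature luminal cells -3.70 ± 0.34 (13.0-fold lower, adjusted p = 6.21e-08), with no overlap. The other 2 beta subunits measured, Kcnmb2 and Kcnmb4, were not called.

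Kcnk2 encodes TREK-1, a K2P channel opened by stretch and lipids. In the MaSC-enriched subset it read 8.04, 8.29, 7.42, 8.10 and 8.10, above all arrays of luminal progenitors (5.09 to 5.74) and of mature luminal cells (4.65 to 5.94). The stromal arrays, at 7.12, 6.66 and 8.08, lay above all luminal arrays, and 1 of them lay within the MaSC-enriched range. The MaSC-enriched level exceeded that of luminal progenitors by 2.71 ± 0.32 (6.54-fold, adjusted p = 1.56e-06), that of mature luminal cells by 2.85 ± 0.30 (7.20-fold, adjusted p = 4.11e-07) and that of the stroma 1.86-fold (adjusted p = 0.0295). The rise rests on 1 of the 2 tested probes, since the second was above background on 1 array only.

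Auxiliary subunits of voltage-gated channels made up 5 of the 11 genes. Kcnip3 encodes a calcium sensor that binds Kv4 channels and, under the name DREAM, represses transcription. Its levels were 8.62, 8.27, 6.94, 9.40 and 8.85 in the MaSC-enriched subset, 5.01, 5.10, 5.54, 5.94 and 6.10 in luminal progenitors, 5.62, 6.41, 6.62, 6.65 and 6.63 in mature luminal cells, and 6.98, 7.08 and 7.18 in the stroma. No luminal array reached the lowest MaSC-enriched level. The MaSC-enriched subset was 7.82-fold above luminal progenitors (2.97 ± 0.30, adjusted p = 2.44e-07) and 4.06-fold above mature luminal cells (2.02 ± 0.28, adjusted p = 1.55e-05). Kcnip3 was also the 1 gene of the lower luminal progenitor signature, since luminal progenitors were 1.93-fold below mature luminal cells (adjusted p = 0.012), a call that was lost without luminal progenitor replicate 1 (adjusted p = 0.0638) or mature luminal replicate 3 (adjusted p = 0.0577). Of the Kv4 pore genes that the subunit binds in other tissues, Kcnd1 and Kcnd2 had other patterns, given below, and Kcnd3 was not called.

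Kcne1l and Kcne4 encode single-pass subunits of the Kcne family, of which the Kcne4 product inhibits several voltage-gated channels. Kcne1l read 7.26, 6.71, 5.83, 7.72 and 7.26 in the MaSC-enriched subset and 7.21, 6.85 and 8.28 in the stroma. It was not above background on any of the 10 luminal arrays, so that the MaSC-enriched subset was at least 3.35-fold above luminal progenitors (adjusted p = 1.77e-05) and at least 3.49-fold above mature luminal cells (adjusted p = 3.59e-06). The stroma was at least 4.70-fold and at least 4.90-fold above them (adjusted p = 6.01e-07 and 9.83e-08) and did not pass the test against the MaSC-enriched subset (0.40 ± 0.28, adjusted p = 0.343). Kcne4 was also high in both, with 7.08, 7.41, 8.30, 8.10 and 10.25 in the MaSC-enriched subset, 4.96 to 6.88 in luminal progenitors, 5.03 to 6.09 in mature luminal cells and 9.34, 8.95 and 8.70 in the stroma. Its MaSC-enriched level was 4.24-fold above luminal progenitors (adjusted p = 0.000921) and 4.92-fold above mature luminal cells (adjusted p = 0.000212), and the stroma was 9.05-fold and 10.5-fold above them (adjusted p = 3.26e-06 and 5.77e-07). The stroma did not pass the test against the MaSC-enriched subset (1.09 ± 0.41, adjusted p = 0.0539).

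The beta subunits Kcnab1 and Kcnab2, cytoplasmic partners of Kv1 channels with an oxidoreductase fold, were both in the MaSC-enriched signature. Kcnab1 read 6.34, 6.46, 6.39, 5.12 and 9.65 in the MaSC-enriched subset, 4.69 to 5.49 in luminal progenitors, 4.76 to 5.43 in mature luminal cells and 5.77 to 6.95 in the stroma. The array of pool 5 thus stood far above the others and that of pool 4 lay within the luminal range, and the mean difference from luminal progenitors was 1.36 in the first batch and 2.67 in the second. The fitted differences were 1.80 ± 0.46 from luminal progenitors (adjusted p = 0.00488) and 1.71 ± 0.43 from mature luminal cells (adjusted p = 0.00476). Kcnab2 was higher by 1.34 ± 0.25 and 1.18 ± 0.24 in these comparisons (adjusted p = 0.000324 and 0.00064), in 5 of 5 pools in both. The pore genes Kcna5 and Kcna6 of the Kv1 class, which lie on chromosome 6 on either side of Kcna1, rose with them. Kcna5 read 5.85 to 7.36 in the MaSC-enriched subset and was 2.51-fold above luminal progenitors (adjusted p = 0.000228), 3.12-fold above mature luminal cells (adjusted p = 1.22e-05) and at least 2.77-fold above the stroma (adjusted p = 1.52e-05). By its brightest probe, Kcna6 was 2.29-fold and 2.91-fold above the luminal subsets (adjusted p = 0.0142 and 0.00138). That call was lost without luminal progenitor replicate 2 (adjusted p = 0.062). A second of its 4 tested probes was also in the signature, with differences of 1.74 and 2.43 (adjusted p = 6.73e-07 and 3.84e-09 in limma). The rest were not called. Kcna1 itself was not called.

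**Figure D3:**
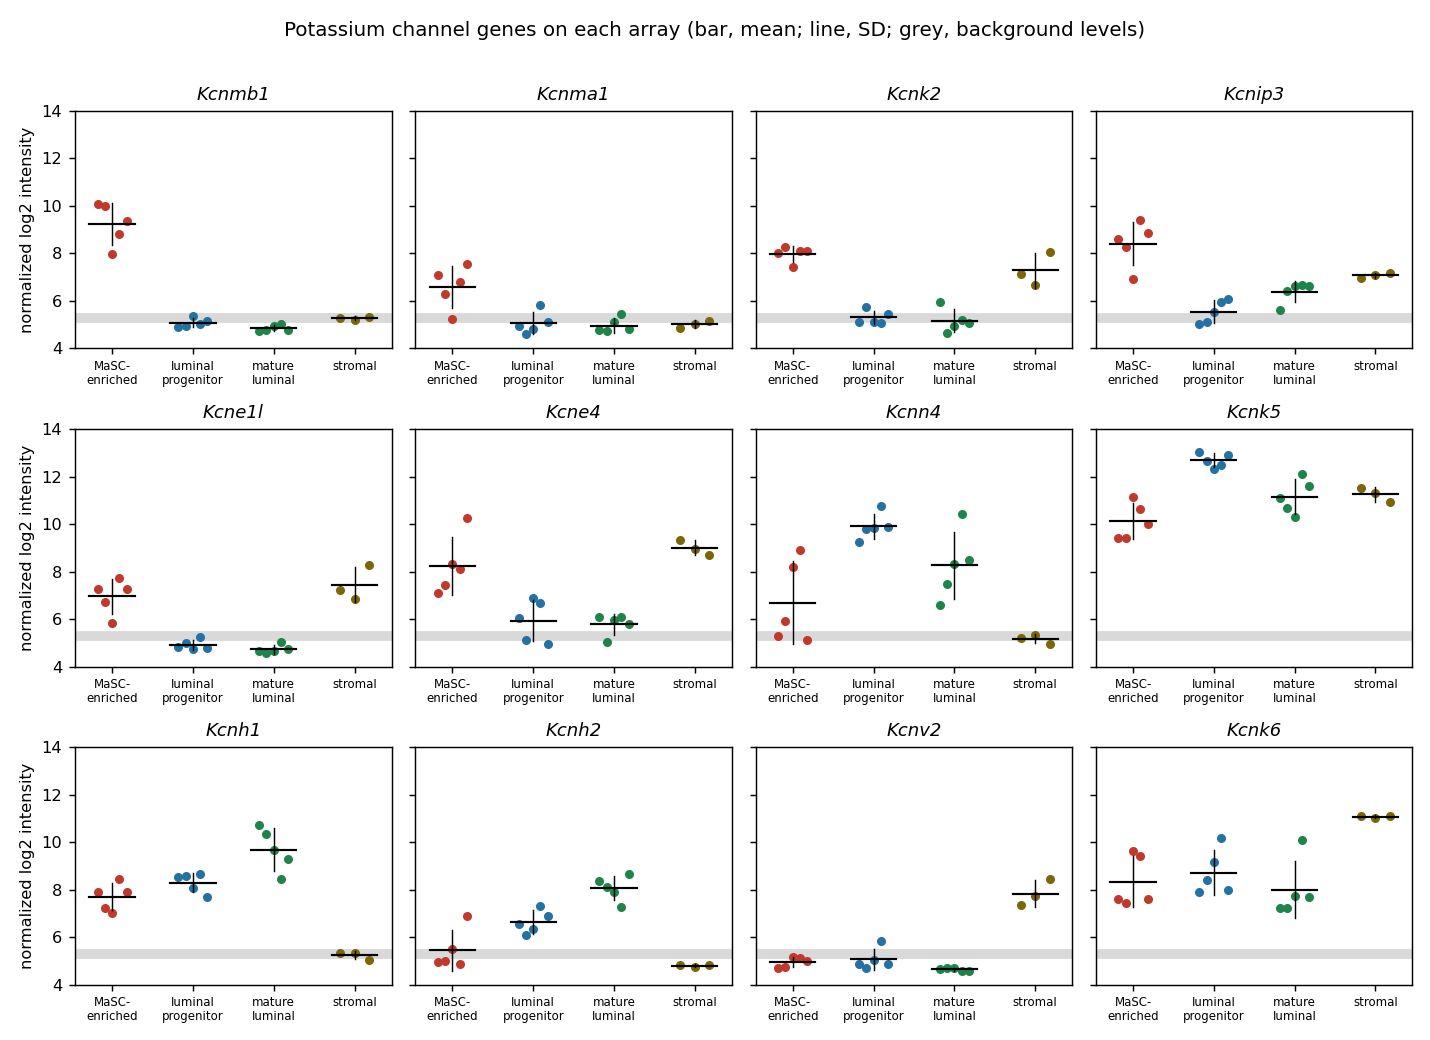
Normalized log2 intensity of 12 potassium channel genes on each array (points, pools in order from left to right), with the mean (bar) and SD (line) of 5 epithelial or 3 stromal arrays and the range of background levels from 5.10 to 5.44 (grey). The MaSC-enriched arrays of Kcnmb1 lie between 7.97 and 10.09, above all other arrays, and those of Kcnn4 split into 3 low and 2 high ones.

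Kcnj8, the Kir pore subunit of the ATP-sensitive potassium channel of vascular muscle and pericytes, was the remaining gene of the MaSC-enriched signature and was in the higher stromal signature too. It read 7.12, 6.36, 7.85, 7.92 and 7.96 in the MaSC-enriched subset and 8.97, 8.76 and 8.39 in the stroma. Luminal progenitors lay between 5.16 and 6.54 and mature luminal cells between 5.77 and 6.38. The MaSC-enriched subset was 2.53-fold above luminal progenitors (1.34 ± 0.29, adjusted p = 0.00141) and 2.54-fold above mature luminal cells (1.35 ± 0.28, adjusted p = 0.000832), which was lost in the first batch alone (adjusted p = 0.0895), and the stroma was 2.89-fold above the MaSC-enriched subset (adjusted p = 0.000248). Abcc9, its sulfonylurea receptor partner in those cells, read 5.74, 5.89, 7.30, 7.88 and 8.33 in the MaSC-enriched subset and 8.71, 8.72 and 8.20 in the stroma, where it was 3.84-fold above the MaSC-enriched subset (adjusted p = 0.000255). Its place in the MaSC-enriched signature (2.08-fold and 2.69-fold above the luminal subsets, adjusted p = 0.0377 and 0.00391) was lost without any 1 of the MaSC-enriched replicates 3, 4 and 5 (adjusted p = 0.094, 0.119 and 0.0965) or luminal progenitor replicates 1, 2 and 5 (adjusted p = 0.139, 0.0617 and 0.108).

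The other receptor, Abcc8, which pairs with the Kir subunit Kcnj11 in pancreatic beta cells, was highest in mature luminal cells, with 9.14, 8.47, 8.90, 8.93 and 9.20 there and 8.05, 7.60, 7.80, 8.43 and 7.55 in luminal progenitors. In the MaSC-enriched subset it read 5.10, 5.00, 6.70, 5.21 and 5.01, and 4.73 to 5.23 in the stroma. The 3 epithelial subsets did not overlap. Mature luminal cells were 2.09-fold above luminal progenitors (adjusted p = 0.000893) and 11.4-fold above the MaSC-enriched subset (adjusted p = 6.42e-10). Kcnj11 was not called, with subset means from 5.11 to 5.51.

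**Figure D4:**
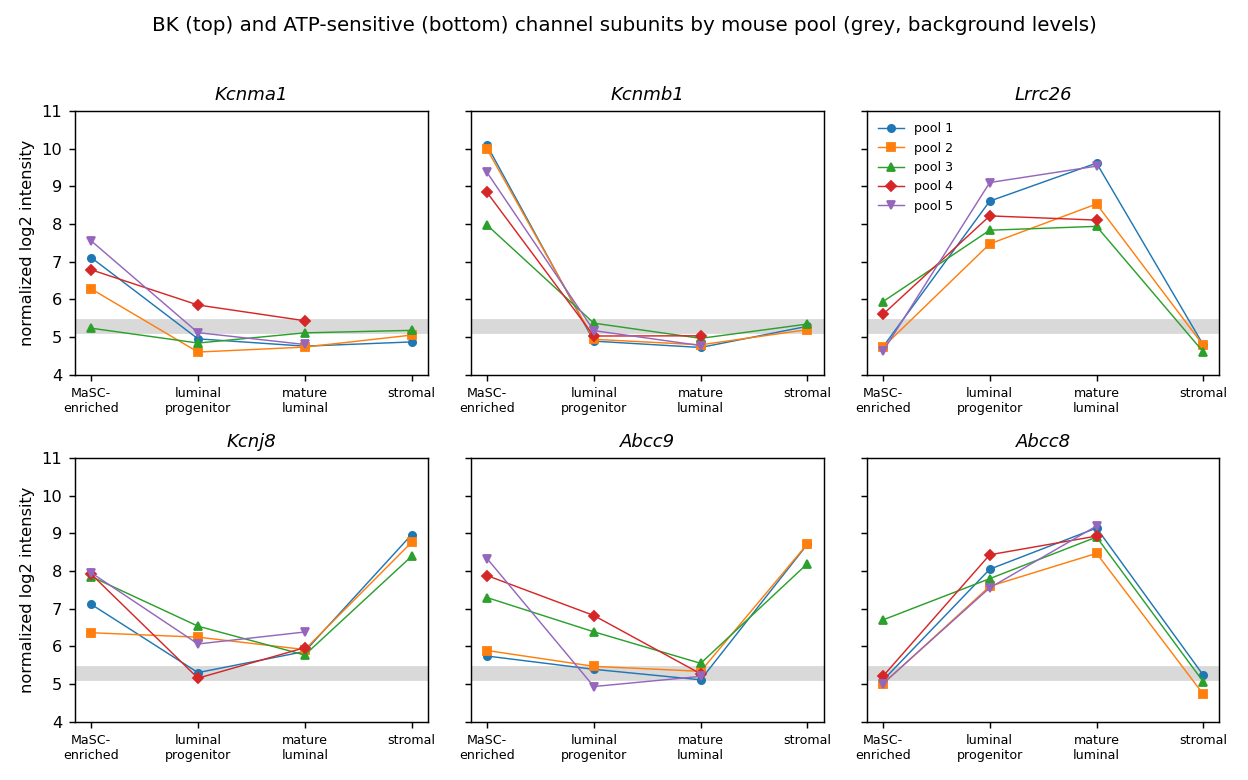
Normalized log2 intensity by subset for BK channel subunits (Kcnma1, Kcnmb1 and Lrrc26) and subunits of ATP-sensitive channels (Kcnj8, Abcc9 and Abcc8), with 1 line for each of 5 mouse pools (stroma in pools 1 to 3) and the background range in grey. In each pool Kcnmb1 was highest and Lrrc26 lower in the MaSC-enriched subset than in the luminal subsets, and Abcc9 was highest in the stroma of pools 1 to 3.

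Pericytes are known for Kcnj8 and Abcc9, and the MaSC-enriched arrays differed in the 6 pericyte markers Rgs5, Cspg4, Notch3, Des, Mcam and Pdgfrb. Their summed log2 level was 50.3 to 61.0 in the MaSC-enriched subset and 47.7 to 50.4 in the stroma. It was 41.3 to 53.2 in luminal progenitors and 43.0 to 49.1 in mature luminal cells. All 6 were above background on all MaSC-enriched, luminal progenitor and stromal arrays, and 4 on all mature luminal arrays. The markers differed in order. Mcam was higher on every MaSC-enriched array than on any other array. Pdgfrb was highest in the stroma, at 10.67 to 10.99 against 7.21 to 9.08 in the MaSC-enriched subset. Notch3 read 8.38 and 8.81 on the MaSC-enriched arrays of pools 1 and 2 and 10.45 to 11.03 on those of pools 3 to 5. On the luminal arrays it read 10.1 to 10.8. The highest sum was that of the MaSC-enriched array of pool 5, on which Kcnab1, Kcnab2, Kcne4, Kcnj8, Kcnma1 and Abcc9 had their highest MaSC-enriched levels (9.65, 7.94, 10.25, 7.96, 7.55 and 8.33). The remaining potassium channel genes of the higher signature, Kcnmb1, Kcnk2, Kcnip3, Kcne1l, Kcna5 and Kcna6, had their highest levels on MaSC-enriched arrays of other pools. The endothelial sum, of the 5 markers Pecam1, Cdh5, Kdr, Tek and Emcn, was 55.3 and 52.6 on the MaSC-enriched arrays of pools 3 and 4 and 37.6 to 42.9 on the other 3. Pecam1, the gene of the depleted marker CD31, read 12.67 and 11.79 on the former and 7.65 to 9.78 on the latter. It read 10.66 and 10.73 on the luminal progenitor arrays of pools 3 and 4, 7.16 to 7.87 on the other 3, and 8.21 to 9.69 in the stroma. The part of pericytes or endothelial cells in the MaSC-enriched levels was not tested.

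In luminal progenitors the leading genes were Kcnn4, Kcnk5 and Kcnd2. Kcnn4 encodes the intermediate-conductance calcium-activated channel, which recycles potassium during chloride secretion in epithelia. Its levels were 9.26, 9.80, 9.82, 10.75 and 9.86 in luminal progenitors, 6.61, 7.49, 8.34, 10.41 and 8.48 in mature luminal cells, and 5.30, 5.93, 8.20, 8.90 and 5.13 in the MaSC-enriched subset, while the stroma read 5.22, 5.33 and 4.97. Only the mature luminal array of pool 4 reached into the luminal progenitor range. Luminal progenitors were 3.58-fold above mature luminal cells (1.84 ± 0.48, adjusted p = 0.00578), 9.70-fold above the MaSC-enriched subset (MaSC-enriched minus luminal progenitor -3.28 ± 0.53, adjusted p = 6.65e-05) and 20.9-fold above the stroma (adjusted p = 6.27e-07). The difference from mature luminal cells was 2.15 in the first batch and 0.86 in the second.

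The MaSC-enriched arrays of pools 3 and 4, on which Kcnn4 was high, also had the highest sums of 6 luminal markers in that subset, 66.7 and 63.7 against 57.6 to 58.7 on the other 3, and of the 4 luminal progenitor markers, 44.9 and 43.3 against 33.7 to 35.7. The mature luminal array of pool 4 had the highest luminal progenitor sum of its subset, 49.2 against 43.6 to 45.7. The part of other luminal cells in these levels was not tested. Kcnn4 was also in the lower MaSC-enriched signature (2.71-fold below mature luminal cells, adjusted p = 0.0354), but the call was lost without any 1 of MaSC-enriched replicates 1, 2 and 5 (adjusted p = 0.242, 0.176 and 0.113) or mature luminal replicates 3, 4 and 5 (adjusted p = 0.0783, 0.0623 and 0.0667).

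Kcnk5 encodes TASK-2, a K2P channel opened by alkaline pH and known from kidney epithelium. Luminal progenitors read 13.05, 12.67, 12.32, 12.48 and 12.91, above all arrays of the other subsets, which were 10.28 to 12.13 in mature luminal cells, 9.42 to 11.12 in the MaSC-enriched subset and 10.91 to 11.52 in the stroma. They were 3.52-fold above mature luminal cells (1.82 ± 0.30, adjusted p = 8.27e-05), 6.84-fold above the MaSC-enriched subset (adjusted p = 1.72e-06) and 2.61-fold above the stroma (adjusted p = 0.00119). All 3 tested probes were in the luminal progenitor signature. The step from mature luminal cells down to the MaSC-enriched subset (1.94-fold, adjusted p = 0.0242) was called with the brightest probe, and was lost without any 1 of MaSC-enriched replicates 1, 2 and 5 (adjusted p = 0.234, 0.148 and 0.0595) or mature luminal replicates 1 and 5 (adjusted p = 0.0637 and 0.0587).

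Kcnd2, a Kv4 pore gene of A-type currents, read 6.35, 6.25, 6.21, 6.61 and 5.71 in luminal progenitors, 4.95, 4.97, 5.14, 5.87 and 5.98 in mature luminal cells, 4.74 to 5.28 in the MaSC-enriched subset and 4.68 to 4.93 in the stroma. The difference from mature luminal cells was 1.00 ± 0.18 (adjusted p = 0.000176), with batch means of 1.25 and 0.23, and that from the MaSC-enriched subset was 2.39-fold (adjusted p = 4.15e-05). With the mean of the 2 tested probes the call was lost.

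Mature luminal cells were set apart by Kcnh1 and Kcnh2, voltage-gated channels of the EAG and ERG types, of which the ERG channel is known for cardiac repolarization. Kcnh1 read 10.71, 10.33, 9.66, 8.44 and 9.30 in mature luminal cells, 8.53, 8.55, 8.06, 8.65 and 7.68 in luminal progenitors, 7.90, 7.24, 7.03, 8.43 and 7.91 in the MaSC-enriched subset and 5.35, 5.33 and 5.04 in the stroma. The stroma lay below every epithelial array, and the lowest mature luminal array, of pool 4, lay within the luminal progenitor range. Mature luminal cells were 3.16-fold above luminal progenitors (luminal progenitor minus mature luminal -1.66 ± 0.28, adjusted p = 0.000116) and 5.04-fold above the MaSC-enriched subset (adjusted p = 3.65e-06). The stroma was below all 3 epithelial subsets, with differences of -2.39 ± 0.29, -3.06 ± 0.28 and -4.72 ± 0.26 (adjusted p = 2.9e-06 against the MaSC-enriched subset, 6.11e-08 against luminal progenitors and 6.16e-11 against mature luminal cells). The batch means of the difference between luminal progenitors and mature luminal cells were -1.85 and -0.70. A second probe of Kcnh1 was near background in all subsets and not called.

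Kcnh2 had the same order of the epithelial subsets. Its levels were 8.35, 8.13, 7.89, 7.28 and 8.64 in mature luminal cells, 6.56, 6.08, 6.34, 7.33 and 6.87 in luminal progenitors and 4.95, 5.00, 5.51, 4.85 and 6.89 in the MaSC-enriched subset, and 0 of 3 stromal arrays was above background. The luminal subsets overlapped only in pool 4, and the MaSC-enriched array of pool 5 lay within the luminal progenitor range. Mature luminal cells were 3.16-fold above luminal progenitors (adjusted p = 1.28e-05), 6.78-fold above the MaSC-enriched subset (adjusted p = 3.07e-08) and at least 7.57-fold above the stroma (adjusted p = 6.01e-10). The MaSC-enriched subset was 2.15-fold below luminal progenitors (adjusted p = 0.00216), a call that was lost with the mean of the 4 tested probes (adjusted p = 0.0169, but under 1.5-fold). The mature luminal call was kept with that mean. These folds are of the brightest probe, and only 2 of the 4 probes had a call in any comparison. A probe without one, above background on 11 arrays, had means of 5.51 in mature luminal cells, 5.14 in luminal progenitors, 5.18 in the MaSC-enriched subset and 5.61 in the stroma.

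Kcnk16, a K2P channel known from pancreatic islets, lies next to Kcnk5 on chromosome 14, 79.6 kb away, and had another pattern. It was above background on all mature luminal arrays (6.22, 6.34, 6.14, 6.33 and 6.49) and below them on every other array, at 4.68 to 5.15 in the MaSC-enriched subset, 4.74 to 5.81 in luminal progenitors and 4.76 to 4.87 in the stroma. Mature luminal cells were 2.57-fold above the MaSC-enriched subset (adjusted p = 6.21e-08), 2.36-fold above luminal progenitors (adjusted p = 1.25e-07) and at least 2.25-fold above the stroma (adjusted p = 4.65e-09). Kcnab3, the remaining Kv1 beta subunit, was 2.08-fold and 1.64-fold above these epithelial subsets in mature luminal cells (adjusted p = 0.000126 and 0.00348), in 5 of 5 pools in both. In pool 4, however, its levels in mature luminal cells and the MaSC-enriched subset were nearly the same (5.394 and 5.390). The calls of Kcnn1, a small-conductance calcium-activated channel, and Kcnu1, a channel known from sperm, were weak in mature luminal cells. Kcnn1 was lost without any 1 of MaSC-enriched replicates 1 and 2 or mature luminal replicates 2 and 5 (signature differences of 0.59, 0.58, 0.56 and 0.61 against 0.65 with all arrays). Kcnu1 (0.78 with all arrays) was lost without any 1 of luminal progenitor replicates 1, 3 and 5 (0.78, 0.76 and 0.76), MaSC-enriched replicates 1 and 5 (0.75 and 0.78) or mature luminal replicates 2 and 3 (0.58 and 0.67). Its levels in the stroma, 6.64, 6.18 and 6.75, had a higher mean than those in mature luminal cells (6.52 ± 0.30, n = 3, against 5.80 ± 0.66, n = 5; 0.48 ± 0.21, adjusted p = 0.0986 in limma), and were 2.68-fold above the MaSC-enriched subset (adjusted p = 8.5e-05) and 2.14-fold above luminal progenitors (adjusted p = 0.000717).

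Kcnk1, which encodes the K2P channel TWIK-1, was shared by the epithelial subsets. It read 11.65 to 12.02 in the MaSC-enriched subset, 12.19 to 12.99 in luminal progenitors and 12.65 to 12.88 in mature luminal cells, and 8.81, 8.86 and 6.82 in the stroma. The stroma was 10.2-fold, 19.6-fold and 19.8-fold lower (adjusted p = 3.77e-08, 6.57e-10 and 2.36e-10), with no overlap, and both tested probes gave the same calls. The third stromal array had the lowest level, and its sum of the 6 luminal markers was 48.3 against 55.2 and 54.2 on the other 2. The MaSC-enriched subset lay below luminal progenitors and mature luminal cells with no overlap (1.93-fold and 1.95-fold, adjusted p = 0.0261 and 0.0169), but this call was lost without any 1 of MaSC-enriched replicates 1 and 2 (adjusted p = 0.0675 and 0.0923), mature luminal replicate 3 (adjusted p = 0.0527) or luminal progenitor replicate 3 (adjusted p = 0.055).

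The stromal signature was led by Kcnv2 and Kcnk6. Kcnv2, a silent subunit that modifies other Kv channels and is known from photoreceptors, read 7.33, 7.71 and 8.45 in the stroma. On the epithelial arrays it was between 4.58 and 5.83, with 2 of 15 above background. The stroma was 7.16-fold above the MaSC-enriched subset (2.84 ± 0.17, adjusted p = 1.91e-10), 7.07-fold above luminal progenitors (2.82 ± 0.16, adjusted p = 1.09e-10) and at least 6.41-fold above mature luminal cells (adjusted p = 1.41e-11).

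Kcnk6 encodes TWIK-2, a K2P channel, and was above background in all subsets. It read 11.10, 11.02 and 11.11 in the stroma, 7.60, 7.45, 9.62, 9.40 and 7.59 in the MaSC-enriched subset, 7.90, 8.40, 9.17, 10.15 and 7.97 in luminal progenitors and 7.23, 7.24, 7.71, 10.08 and 7.69 in mature luminal cells. No epithelial array reached the stromal level, and the 5 highest epithelial arrays were of pools 3 and 4. The stroma was 7.95-fold, 6.41-fold and 11.1-fold higher (adjusted p = 3.01e-06, 6.51e-06 and 9.26e-08 in the same order). The 6 fibroblast markers had sums of 68.2 and 68.5 on the MaSC-enriched arrays of pools 3 and 4, 56.5 to 58.8 on the other 3, and 83.2 to 84.8 in the stroma. The sums on the luminal progenitor arrays of pools 3 and 4, 60.1 and 57.8, lay within the 54.0 to 60.5 of the other 3, and the mature luminal array of pool 4 had 53.0 against 43.4 to 51.2 on the other 4. The endothelial sums of the luminal progenitor arrays of pools 3 and 4 were 47.0 and 49.7, against 32.3 to 37.1 on the other 3. On the mature luminal array of pool 4 the endothelial sum was 40.3, against 36.7 to 39.1 on the other 4. The part of fibroblasts, endothelial cells or other cells in the Kcnk6 levels was not tested.

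The other genes of the higher stromal signature were Kcnj8, described above, and 5 more. Kcnn1, the small-conductance channel, read 7.93, 7.83 and 7.77 in the stroma and was lower on every epithelial array. It was 4.06-fold, 4.34-fold and 2.67-fold above the MaSC-enriched, luminal progenitor and mature luminal subsets (adjusted p = 2.26e-08, 6.37e-09 and 5.5e-07). The Kv4 pore gene Kcnd1 was 2.33-fold above the MaSC-enriched subset and at least 2.08-fold and at least 2.16-fold above the luminal subsets (adjusted p = 3.28e-07, 2.27e-08 and 2.04e-08), at 6.10 to 6.57 against 4.55 to 5.42 on all epithelial arrays. Its other tested probe was above background on 2 arrays and was not called (0.31, 0.25 and 0.13, adjusted p = 0.155, 0.24 and 0.548 in limma). The call of Kcnd1 was kept with the mean of both probes. Kcnn3, another small-conductance channel, rose by 0.86 ± 0.12, 0.94 ± 0.12 and 1.01 ± 0.11 (adjusted p = 2.13e-05, 4.41e-06 and 7.02e-07), a call that was lost with the mean of its 2 tested probes (signature difference 0.42). Kcnh6, a second ERG channel, lost its call without stromal replicate 2 (adjusted p = 0.0767, 0.0133 with all arrays), and also without array weights, with the BeadChip as a fixed block and with the mean of its probes (signature difference 0.61). Kcnt2, a sodium-activated channel, lost it without stromal replicate 2 (adjusted p = 0.0754, 0.00331 with all arrays), and without MaSC-enriched replicate 2 its signature difference was 0.68 with the call lost.

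The order of the subsets differed between genes of the same channel class. In voltage-gated Kv4 channels, Kcnd2 was highest in luminal progenitors, Kcnd1 in the stroma and the auxiliary Kcnip3 in the MaSC-enriched subset. Among K2P channels, Kcnk2 was highest in the MaSC-enriched subset, Kcnk5 in luminal progenitors, Kcnk16 in mature luminal cells and Kcnk6 in the stroma, each called against all other subsets in limma. Among calcium-activated channels, Kcnma1 was highest in the MaSC-enriched subset, Kcnn4 in luminal progenitors and Kcnn1 and Kcnn3 in the stroma.

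5 genes were called in a comparison without entering a signature. Kcne2, a Kcne subunit known from stomach and heart, read 5.50, 5.36, 7.52, 6.40 and 6.57 in mature luminal cells and 4.77 to 5.27 in the MaSC-enriched subset, with no overlap (2.19-fold, adjusted p = 0.0142). The summed level of 4 skeletal muscle markers was 35.3 and 36.5 on the mature luminal arrays of pools 3 and 4 and 21.4 to 25.8 on the other 3, and the part of muscle in the Kcne2 levels was not tested. Kcna3, the Kv1 channel of lymphocytes, was 1.53-fold lower in the stroma than in luminal progenitors (adjusted p = 0.00166), close to the fold threshold. Kcnj15, an inward rectifier, was 1.63-fold lower in the stroma than in luminal progenitors (adjusted p = 0.0227), Kcnk3, a K2P channel, had a MaSC-enriched level 1.52-fold above mature luminal cells (adjusted p = 0.0403), and Kcnq1ot1 was 1.72-fold higher in the stroma than in mature luminal cells (adjusted p = 0.0281). These calls and that of Kcna3 were each lost without any 1 of several arrays, 4 for Kcnj15, 9 for Kcnk3, 5 for Kcnq1ot1 and 4 for Kcna3.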

How the data were processed

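The 18 RNA samples were run in 2 batches of 12 and 6 arrays on 3 Illumina mouse whole-genome BeadChips. Per the study's methods, the authors corrected the intensities with normexp and quantile normalized them with control probes (neqc in limma), and the log2 values they deposited were used here. A second table, of intensities and detection values before normalization (36 columns), was not used because its headings tie no column to a sample, so the detection filter of the study was replaced by one on background. The number of arrays limits the precision.

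Background on an array was set from 1501 olfactory and vomeronasal receptor probes, at the level that 1% of a normal distribution with their median and median absolute deviation would exceed. This kept 35590 of 45281 probes (78.6%), among them 662 receptor probes, so the filter is lenient. Symbols came from the platform annotation (34885 probes with 1 symbol, 18 with several and 10378 with none, the last 2 kinds left unnamed).

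All 18 arrays entered 1 model (limma 3.58.1, with statmod 1.5.0, under R 4.3.3) with empirical Bayes, array weights (0.171 to 2.88, lowest for luminal progenitor replicate 4) and pools as random blocks, whose correlation was 0.263. The fit is weighted, so a fold differs from the plain means. Adjusted p-values are Benjamini-Hochberg over all probes and the 6 comparisons together. Where several p-values are given for a gene, they follow the order of the folds, and the p given for a signature is the larger one of its comparisons. A subset with no array above background has only a bound there, and the fold was then computed against the higher of its level and background and written "at least". The signature difference is the subset minus the mean of the other epithelial subsets (of all 3 for the stroma). The code was tested on simulated data. The rule for naming was every gene in a signature, the 3 largest differences of each comparison, the gene with the highest mean level in each family, and the partner genes in a signature. Genes beyond it were named after their values were seen, and are given only to account for a family or a count. The genes and lists were chosen with earlier results of these data known. Pool numbers mark the same mice, and residuals of the same pool had a median correlation of 0.414 over 24 pairs, against 0.03 over 42 pairs of other pools in the same batch.

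Nearest arrays over the 500 most variable probes were of the same subset for 18 of 18 arrays. Mature luminal replicate 4, however, had mean distances of 28.0 to its own subset and 28.3 to luminal progenitors. Its sum of the luminal progenitor markers, 49.2, was above the 47.0 of the luminal progenitor array of the same pool. Summed marker levels were 80.4 to 83.9 for 6 basal markers in the MaSC-enriched subset (at most 65.9 elsewhere), 47.0 to 51.8 for 4 luminal progenitor markers in luminal progenitors (at most 49.2 elsewhere), 30.7 to 34.4 for 3 mature luminal markers in mature luminal cells (at most 31.0 elsewhere) and 83.2 to 84.8 for 6 fibroblast markers in the stroma (at most 68.5 elsewhere). None of the 6 basal markers was at background on all arrays of any subset. Alternatives tried were the pool as a fixed block or left out, batch or BeadChip as a block, each batch alone, no weights, other filters, the mean of probes, renewed quantile normalization, adjustment per comparison, a test with the fold inside, the epithelial arrays alone, and each array left out.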

Additional observations from a re-analysis of the deposited data

Results flagged for a closer look

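Levels of the named potassium channel and partner genes were searched for an array far from the other 4 of its subset (gap over range above 0.71, Dixon's value for 5 arrays). 10 of 120 groups met this, where chance gives about 5%. Luminal progenitor replicate 4 had 7.41 for Kcnh6 (4.73 to 5.17 on the others) and 5.59 for Kcnn3 (4.75 to 4.89), and this array had the lowest weight in the fit. Mature luminal replicate 4 was high for Kcnk6 (10.08 against 7.23 to 7.71) and Atp12a (7.35 against 5.20 to 5.79), and low for Kcnab3 (5.39 against 6.29 to 6.56).

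MaSC-enriched replicate 3 had 6.70 for Abcc8 (5.00 to 5.21 on the others) and was low for Kcnk2 (7.42 against 8.04 to 8.29). Luminal progenitor replicate 3 was high for Kcnab1 (5.49 against 4.69 to 4.87), mature luminal replicate 1 low for Kcnip3 (5.62 against 6.41 to 6.65), and mature luminal replicate 5 high for Kcnt2 (5.34 against 4.88 to 4.98).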

How the results depend on the processing

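Over 33 alternatives, the 61 named gene results gave 1975 values, of which 199 lost a call. 0 called results changed direction, and Kcnq3, which was not called, ran from -0.31 (second batch alone) to 0.51 between the MaSC-enriched and mature luminal subsets. 39 of the 61 lost no call outside the second batch alone and the test with the fold inside (treat), among them Kcnq3, which had no call to lose. Without the replicate block the lower MaSC-enriched signature held 2 genes in place of 4. The pool as a fixed replicate block moved no count of calls by over 1.5 times. Without array weights the lower luminal progenitor signature held 0 genes. In the second batch alone (6 arrays, no stroma) the MaSC-enriched signature held 5 higher and 0 lower genes, and the luminal progenitor (higher and lower) and mature luminal (higher) signatures 0 in limma. Under treat the higher signatures held 7 genes for the MaSC-enriched subset, 1 for luminal progenitors, 3 for mature luminal cells and 5 for the stroma, and the lower signatures of the first 2 held 0. Leaving out 1 array at a time gave 28 to 32 genes called in any comparison. The MaSC-enriched signature then held 10 to 11 higher and 1 to 5 lower genes, that of luminal progenitors 3 higher and 0 to 1 lower, that of mature luminal cells 4 to 7 higher and 0 lower, and that of the stroma 7 to 9 higher and 2 to 3 lower. The lower MaSC-enriched count was 1 without MaSC-enriched replicate 1 or 2, and 2 without MaSC-enriched replicate 5 or mature luminal replicate 3 or 5. The cause was not tested.

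Kcnj15 (-0.71 from luminal progenitors to the stroma) lost its call without luminal progenitor replicate 2 (-0.56) or 3 (-0.64) or stromal replicate 2 (-0.78) or 3 (-0.66). Kcnk3 (0.61 above mature luminal cells) was 0.35 without MaSC-enriched replicate 5 and between 0.58 and 0.63 in the other 8 losses. Kcnq1ot1 (0.78) was 0.61 and 0.62 without mature luminal replicates 1 and 5 and 0.83, 0.75 and 0.76 without stromal replicates 1, 2 and 3. Kcna3 (-0.61) was -0.51 without stromal replicate 1 or luminal progenitor replicate 1, and -0.58 and -0.57 without luminal progenitor replicates 4 and 5. Genes near background have only a small range in which to differ.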

Other observations

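Pumps and cotransporters that keep the potassium gradient were also measured. Of 12 tested genes of the sodium and proton pumps and their Fxyd regulators, 8 were called in at least 1 comparison, and of 5 tested cotransporters that carry potassium with chloride, with or without sodium, 3, beside 52.6% of all genes. The beta subunits of the sodium pump differed in order. Atp1b1 read 7.63, 7.44, 9.97, 9.88 and 7.56 in the MaSC-enriched subset, against means of 11.35 in luminal progenitors and 11.79 in mature luminal cells, with differences of -3.12 and -3.46 (adjusted p = 1.01e-06 and 1.31e-07 in limma). Atp1b2 was higher in the MaSC-enriched subset, at 6.19, 6.79, 7.26, 8.09 and 8.93, 4.20-fold above luminal progenitors (adjusted p = 0.000122) and at least 4.93-fold above mature luminal cells (adjusted p = 1.85e-05), and Atp1b3 was 1.98-fold and 2.22-fold higher there (adjusted p = 1.41e-05 and 1.14e-06).

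Fxyd2, a regulator of the sodium pump, was 18.7-fold lower in the MaSC-enriched subset than in mature luminal cells (adjusted p = 7.19e-08), and 3.52-fold lower in luminal progenitors than there (adjusted p = 0.000855). Fxyd1 was 7.97-fold and Fxyd5 3.46-fold higher in the stroma than in the MaSC-enriched subset (adjusted p = 1.5e-09 and 0.00284), and Fxyd3 was 11.2-fold lower (adjusted p = 2.65e-08). The higher MaSC-enriched calls of Fxyd1 and of the cotransporter Slc12a7 were lost without any 1 of 5 and 12 arrays, and Slc12a7 was 4.91-fold lower in the stroma than in the MaSC-enriched subset (adjusted p = 1.58e-06). Atp12a, a proton-potassium pump, read 7.66, 7.10, 6.71, 7.50 and 7.58 in luminal progenitors and was 2.91-fold above mature luminal cells (adjusted p = 5.42e-05) and 3.55-fold above the MaSC-enriched subset (adjusted p = 2.25e-05). Slc12a2, which brings in sodium, potassium and chloride at the basal side of secretory epithelia, had MaSC-enriched levels 3.21-fold below luminal progenitors and 4.32-fold below mature luminal cells (adjusted p = 1.01e-05 and 2.97e-07), with no overlap, and Slc12a4, which lets potassium and chloride out, was 2.13-fold and 2.23-fold higher there (adjusted p = 0.00297 and 0.00112).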
